A study of Homo sapiens with 3 samples.

Results

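The 9 *HOXB* genes described here, *HOXB2*, *HOXB3*, *HOXB4*, *HOXB5*, *HOXB6*, *HOXB7*, *HOXB8*, *HOXB9* and *HOXB13*, were read from HCT116 cells in which *HOXA5* short RNA had been targeted by siRNA. They are the genes of the *HOXB* cluster apart from *HOXB1*, a set defined by position and by no value on these arrays, and are 9 of the 21614 genes that could be named on the array. Their transcript accessions matched 10 of the 50599 gene probes, 2 for *HOXB2* and 1 for each of the others, and each probe was printed on 1 spot. HCT116 is a cell line long kept in culture that came from a human colon cancer. One culture received control siRNA, one siRNA #7 and one siRNA #8, each at 10 nM for 48 h, and RNA (400 ng) from each was labeled with Cy3 and hybridized to its own whole-genome array. The question asked of the *HOXB* genes was whether their transcripts differed between cells with and without silencing of *HOXA5* short RNA, a non-coding transcript of the *HOXA6-HOXA5* locus.

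*HOX* genes encode homeodomain transcription factors that give cells their position along the body axis of the embryo. In each *HOX* cluster the genes lie in the order in which they act, with *HOXB1* at the anterior end and *HOXB13* at the posterior end, and adult gut epithelium keeps part of this positional code. HOX proteins bind DNA together with cofactors of the PBX and MEIS families, and the clusters also hold antisense RNAs and the microRNAs miR-10a and miR-196a.

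Both siRNAs were directed at the exon junction that is particular to *HOXA5* short RNA, and their sequences are shown because they overlap. Each has 21 bases, and the 17 bases in capitals are shared by both, at positions 5 to 21 of siRNA #7 and positions 1 to 17 of siRNA #8, counted from the 5′ end.
siRNA #7: gagaAACUGAAAGACAACAUA
siRNA #8: AACUGAAAGACAACAUAggcg
The 2 siRNA cultures were thus treated with reagents that differ by a shift along 1 target, and they are compared with the same control array. The spot of *HOXA5* itself read 84.9 on the control array, against 52.6 for siRNA #7 and 58.5 for siRNA #8, before scaling between arrays. After the scaling described below, its log2 ratios to control siRNA were -0.36 ± 0.25 with siRNA #7 and -0.23 ± 0.26 with siRNA #8. Neither exceeded 2 SDs of the error defined below, so a lower *HOXA5* signal was not established. Whether the *HOXA5* probe reads the short RNA could not be checked here.

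The *HOXB* cluster also encodes microRNAs whose seeds (bases 2 to 8, in capitals) direct them to *HOX* transcripts, and their mature sequences are given from RefSeq (GRCh38.p14). The gene of miR-10a-5p (chr17:48579904-48579926, minus strand) lies next to *HOXB4*, and that of miR-196a-5p (chr17:48632532-48632553, minus strand) lies between *HOXB9* and *HOXB13*. miR-196a is known for pairing with *HOXB8* mRNA. No probe on the array matched either gene, so their levels were not analysed here.
miR-10a-5p: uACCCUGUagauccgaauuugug
miR-196a-5p: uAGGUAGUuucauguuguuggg

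Each condition had 1 array, so no difference has a replicate check and no gene was tested between single arrays. All 3 arrays came from the same slide. Between 19073 and 20475 gene probes per array were well above background, and no spot was saturated. Intensities are given after subtraction of background and before scaling. A level is a log2 intensity relative to the 75th percentile of all gene probes on the same array, and a ratio is the difference between 2 levels. The error given with a ratio is the spot-to-spot SD, taken from probes printed 10 times (604 to 620 probes per array) in the same range of signal. It leaves out the variation between cultures. Levels of different probes cannot be compared, so the genes are not ranked by level. In RNA from whole cultures, a lower signal from fewer expressing cells and from less RNA per cell cannot be told apart. Of the 7 markers of colon epithelium examined, 5 passed the background test on every array, and *CDH17* and *VIL1* did not. Of the 7 markers of other cells, *CD68* and *COL1A1* passed, and *PTPRC*, *CD3E*, *COL1A2*, *PECAM1* and *VWF* did not.

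HCT116 cells had signal from nearly the whole *HOXB* cluster. Of the 9 genes, 8 had a probe that was well above background on all 3 arrays, and *HOXB3* was so with control siRNA only. Among all named genes this held for 12031 of 21614. In the other clusters, 8 of 11 *HOXA* genes, 5 of 9 *HOXC* genes and 1 of 9 *HOXD* genes had such a probe. These lists hold every gene of their cluster, and on that basis, with *HOXB1* counted, the *HOXB* share was 8 of 10. Between *HOXB1* and *HOXB13*, RefSeq lists 24 genes and transcripts, of which 13 had a matched probe and 10 a passing one. *HOXB1*, the most anterior gene of the cluster, read 1.45, 1.66 and 2.09 on the control, siRNA #7 and siRNA #8 arrays, and none of these was well above background.

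**Figure D1:**
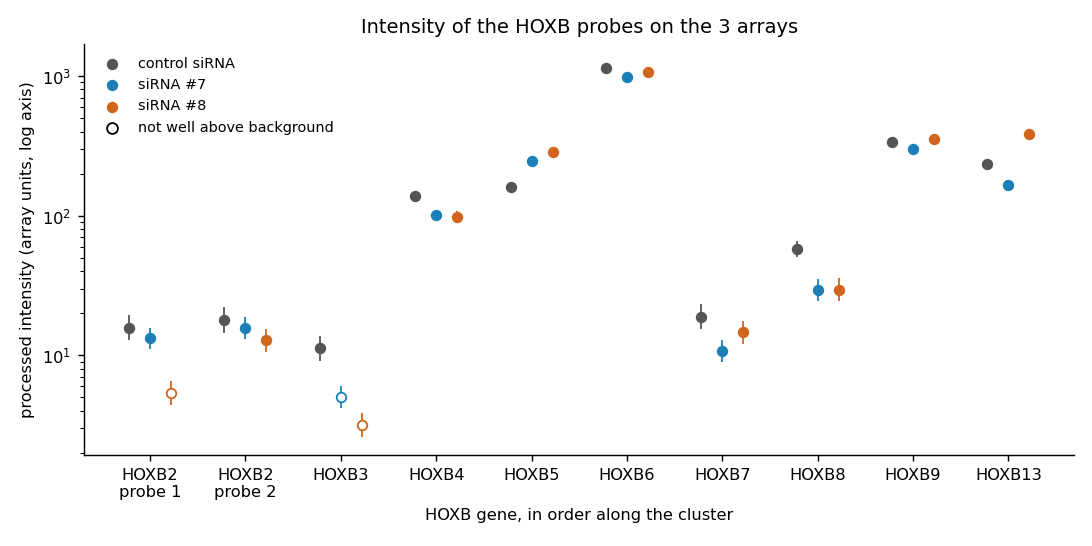
Background-subtracted intensity (array units, log axis) of the 10 *HOXB* probes on the control siRNA, siRNA #7 and siRNA #8 arrays, in gene order; bars are the spot-to-spot SD and open circles are spots not well above background. Intensities are before scaling, and the 75th percentile was 52.8 on the control array, against 42.1 for siRNA #7 and 42.8 for siRNA #8. The *HOXB5* spots are brighter with both siRNAs than with control siRNA. Those of *HOXB2*, *HOXB3*, *HOXB4*, *HOXB6*, *HOXB7* and *HOXB8* are dimmer with both. The *HOXB13* spot is brightest with siRNA #8 (385).

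The spots of *HOXB2* and *HOXB3* were dim. *HOXB2*, a regulator of hindbrain segments, had intensities of 17.8 on the control array, against 15.6 for siRNA #7 and 12.8 for siRNA #8 on its brighter probe. The log2 ratios to control siRNA were 0.14 ± 0.40 with siRNA #7 and -0.18 ± 0.41 with siRNA #8, both within the spot-to-spot SD. Its second probe had intensities of 15.8, 13.2 and 5.35, and the last was not well above background. By that probe *HOXB2* was at least 1.83-fold lower with siRNA #8 than with control siRNA, so the probes of this gene gave different sizes for siRNA #8. This and the following bounds set the bright spot against the higher of the dim spot's own intensity and the lowest intensity among probes well above background on that array, after scaling, and leave out the spot-to-spot error.

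*HOXB3*, another hindbrain regulator, had an intensity of 11.2 on the control array, against 5.04 for siRNA #7 and 3.17 for siRNA #8. Only the first was well above background, while the lowest intensities called so on the arrays were 6.13, 6.75 and 6.98. By the same rule the bounds were 1.32-fold lower with siRNA #7 and 1.30-fold lower with siRNA #8 than with control siRNA. The spot-to-spot SDs of these ratios, 0.40 and 0.41 on the log2 scale, were about as large as the bounds. A difference for *HOXB3* was therefore not established.

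*HOXB4*, known for its part in the self-renewal of blood stem cells, had intensities of 138 on the control array, against 102 for siRNA #7 and 98.4 for siRNA #8. After scaling, the 3 arrays were close, with log2 ratios to control siRNA of -0.11 ± 0.16 and -0.18 ± 0.18. Under scaling on spike-in controls these became -0.44 and -0.42. After the signal of neighbouring spots was removed, as described for *HOXB5* below, they were -0.0036 and -0.41. The closeness of the siRNA arrays for *HOXB4* thus depended on the setting.

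*HOXB5*, which takes part in the development of the gut and its nerve cells, had higher signal with both siRNAs than with control siRNA. With siRNA #7 its ratio was the largest of the 8 genes measured on all arrays, and with siRNA #8 it did not differ from that of *HOXB13* (1.02 ± 0.17) by more than the error. Its intensity was 161 on the control array, against 247 for siRNA #7 and 284 for siRNA #8. Both siRNA arrays were brighter than the control array even before scaling. The log2 ratio to control was 0.95 ± 0.16 with siRNA #7 and 1.13 ± 0.18 with siRNA #8, or 1.93-fold and 2.18-fold. These ratios were higher than those of 97.7% and 98.7% of all genes with a passing probe. The siRNA arrays differed from each other by 0.18 ± 0.16. Around the *HOXB5* spot lay 12 passing spots, whose median log2 ratio was 0.024 for siRNA #7 and 0.43 for siRNA #8. The signal of neighbouring spots was also removed array by array, by subtracting on each array the median deviation of those spots from their own means over the 3 arrays. The *HOXB5* ratios then became 0.80 and 0.74, which is not the plain difference from the median ratios because medians do not subtract. They stayed positive under each of 7 alternative settings of scaling, background or source of values, ranging from 0.62 to 0.95 for siRNA #7 and from 0.74 to 1.18 for siRNA #8. Among the 7, the deposited log2 values gave nearly the ratios of the main scaling (0.94 and 1.13 for *HOXB5*). That setting is therefore not a separate check for any gene.

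The genes next to *HOXB5* had smaller ratios. *HOXB6*, which lies on its posterior side, had intensities of 1147 on the control array, against 990.3 for siRNA #7 and 1064 for siRNA #8. Its log2 ratios of 0.12 ± 0.15 and 0.19 ± 0.16 were close to their error, and both turned negative (-0.21 and -0.045) with scaling on spike-in controls. After removal of neighbouring spots they rose to 0.20 and 0.45. *HOXB-AS3*, an antisense RNA that spans *HOXB5* and *HOXB6*, had log2 ratios of -0.058 ± 0.40 and -0.060 ± 0.41 on its passing probe, and it was dim (15.4 on the control array, against 11.8 for siRNA #7 and 12.0 for siRNA #8).

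*HOXB7*, studied as a growth-promoting factor in several cancers, gave a dim spot of 18.9 on the control array, against 10.8 for siRNA #7 and 14.5 for siRNA #8. The ratio was -0.49 ± 0.40 on the log2 scale for siRNA #7 and -0.077 ± 0.41 for siRNA #8. Both turned positive, to 0.042 and 0.063, under normexp background correction, which models background and signal together.

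*HOXB8*, which holds back the maturation of myeloid cells when it is overexpressed, had the lowest ratios among the genes measured on all arrays. With siRNA #7 its ratio did not differ from that of *HOXB7* (-0.49 ± 0.40) by more than the error. Under normexp the siRNA #7 ratio of *HOXB13* was lower (-0.36, against -0.31 for *HOXB8*). The intensity of *HOXB8* was 57.7 on the control array, against 29.5 for siRNA #7 and 29.4 for siRNA #8. Both siRNA arrays gave nearly the same signal, below the control array. The log2 ratio to control was -0.64 ± 0.33 with siRNA #7 and -0.67 ± 0.34 with siRNA #8, or 1.56-fold and 1.59-fold lower, and neither exceeded 2 SDs. The ratios stayed negative under the 7 alternatives. They shrank to -0.31 and -0.25 under normexp, and after removal of neighbouring spots they were -0.46 and -0.80. Of all genes with a passing probe, 5.48% had a lower ratio with siRNA #7 and 7.8% with siRNA #8.

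*HOXB9*, a posterior gene of the cluster, had intensities of 335 on the control array, against 298 for siRNA #7 and 355 for siRNA #8. The log2 ratio was 0.16 ± 0.16 with siRNA #7 and 0.39 ± 0.17 with siRNA #8, so the second was larger than 2 SDs and the first was about its error. The first turned to -0.17 with scaling on spike-in controls, and the second shrank to 0.091 under normexp.

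*HOXB13*, the most posterior gene and a marker of prostate and distal colon epithelium, separated the siRNAs. Its intensity was 234 on the control array, against 166 for siRNA #7 and 385 for siRNA #8. The siRNA #8 array was the highest, whereas the control siRNA and siRNA #7 arrays were close after scaling. The log2 ratio to control was -0.17 ± 0.16 with siRNA #7, and it turned to 0.12 after removal of neighbouring spots. With siRNA #8 it was 1.02 ± 0.17, or 2.03-fold, and it stayed positive under the 7 alternatives, between 0.73 and 1.07. Between the siRNA arrays, a comparison that does not use the control array, *HOXB13* was 1.19 ± 0.16 higher on the log2 scale with siRNA #8 than with siRNA #7, or 2.28-fold, and between 0.85 and 1.27 under the 7 alternatives. The difference was higher than that of 98.9% of all genes with a passing probe. *PRAC2*, a neighbour of *HOXB13* that is active in prostate and distal colon, had log2 ratios to control siRNA of -0.056 ± 0.25 and -0.43 ± 0.26 on its passing probe, and *PRAC1* did not pass the background test on any of the 3 arrays.

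**Figure D2:**
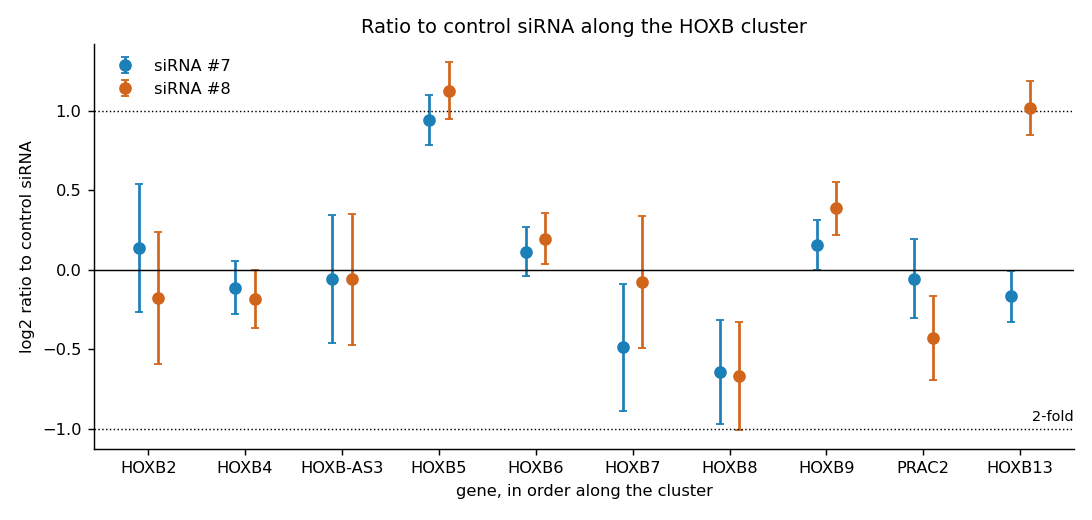
Log2 ratio to control siRNA (1 spot per array; bars are the spot-to-spot SD of the ratio) of the *HOXB* genes, *HOXB-AS3* and *PRAC2* with a passing probe, in order along the cluster; dotted lines mark 2-fold. *HOXB5* is near 2-fold with both siRNAs (0.95 and 1.13), and *HOXB13* is so with siRNA #8 only (1.02, against -0.17 with siRNA #7).

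Read along the cluster, the sign of the ratio turned several times, with *HOXB4* below control, *HOXB5* and *HOXB6* above, *HOXB7* and *HOXB8* below and *HOXB9* above. For siRNA #7, 4 of the 8 genes were above control, where 51.5% of all genes with a passing probe were. For siRNA #8 it was also 4 of 8, where 50.8% were. Relative to control siRNA, *HOXB5*, *HOXB6* and *HOXB9* were higher with both siRNAs, 3 of 8, where 3939 of all 12031 genes were. *HOXB4*, *HOXB7* and *HOXB8* were lower with both, 3 of 8, where 3660 of 12031 were. *HOXB2* and *HOXB13* were on opposite sides. Of these genes only *HOXB5* exceeded 2 spot-to-spot SDs with both siRNAs. Signs turned with scaling on spike-in controls for *HOXB6* with both siRNAs and for *HOXB2* and *HOXB9* with siRNA #7, under normexp for *HOXB7* with both and for *HOXB2* with siRNA #8, and after removal of neighbouring spots for *HOXB13* with siRNA #7. Over the 8 genes, the median log2 ratio was 0.0013 for siRNA #7 and 0.059 for siRNA #8, beside 0.014 and 0.0072 over all 12031 genes with a passing probe. Scaling on spike-in controls turned the *HOXB* medians to -0.32 and -0.18, where it moved the medians of all passing probes to -0.30 and -0.22. Scaling on the median of each array turned them to -0.070 and -0.0014.

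Counted at 2-fold in either direction, 0 of the 8 genes passed with siRNA #7, where 3.77% of all genes with a passing probe did. With siRNA #8, *HOXB5* and *HOXB13* passed, 2 of 8, where 4.98% of all genes did. Neither passed with scaling on spike-in controls, under normexp or after removal of neighbouring spots, and *HOXB13* did not with scaling on the median of each array. Between the siRNAs *HOXB13* passed, 1 of 8, where 5.64% of all genes did, and it did not pass after removal of neighbouring spots (0.85). At 1.5-fold and in the same direction with both siRNAs, *HOXB5* was higher, where 3.03% of all genes were, and *HOXB8* was lower, where 1.67% were. *HOXB8* did not reach 1.5-fold under normexp with either siRNA, nor with siRNA #7 after removal of neighbouring spots. At 1.5-fold in either direction, *HOXB5* and *HOXB8* passed with siRNA #7, 2 of 8, where 14.5% of all genes did, and *HOXB5*, *HOXB8* and *HOXB13* passed with siRNA #8, 3 of 8, where 18% did. Ratios larger than 2 spot-to-spot SDs were less selective, since 29.8% of all genes had one with siRNA #7, 31.4% with siRNA #8 and 37.3% between the siRNAs. Of the 8 *HOXB* genes, *HOXB5* had one with siRNA #7, *HOXB5*, *HOXB9* and *HOXB13* had one with siRNA #8, and *HOXB13* had one between the siRNAs. By the measure of more than 2 spot-to-spot SDs in the same direction with both siRNAs, *HOXB5* passed, 1 of 8, where 11.1% of all genes did. Both ratios of a gene share the control spot, so that spot alone can set both in the same direction.

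**Figure D3:**
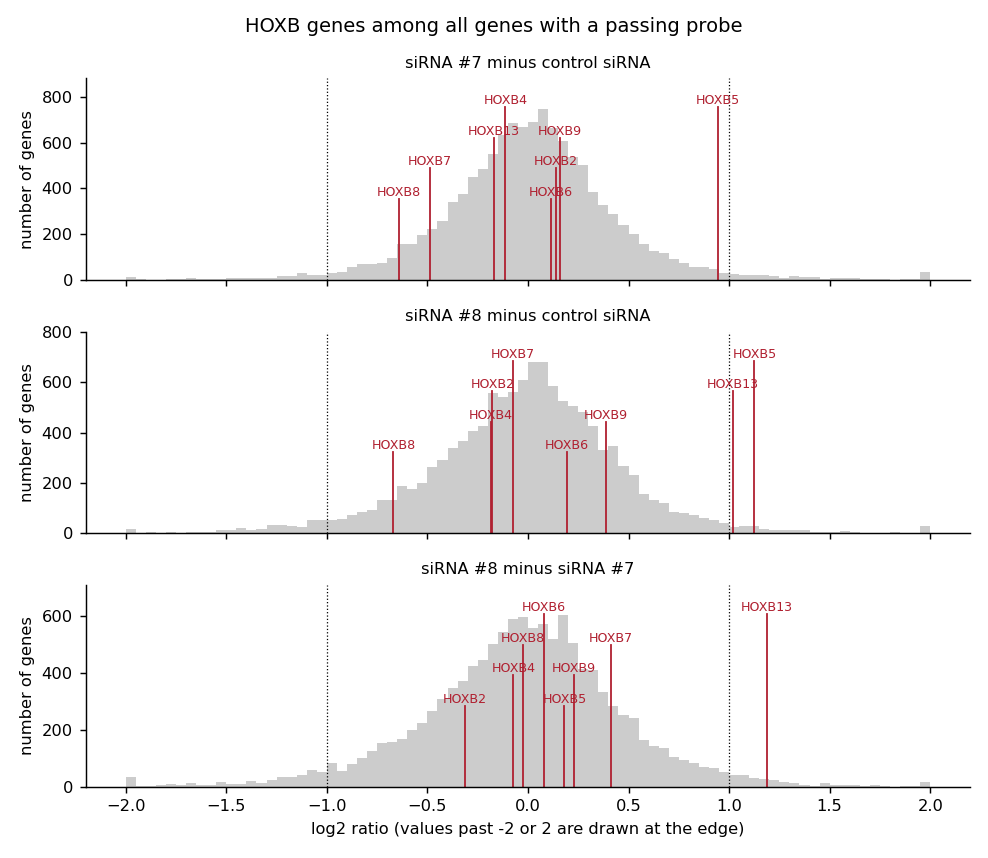
Histograms of the log2 ratios of all 12031 genes with a passing probe, for siRNA #7 and siRNA #8 against control siRNA and for siRNA #8 against siRNA #7, with the 8 *HOXB* genes as labeled lines and 2-fold as dotted lines. Most *HOXB* genes lie in the body of each histogram, *HOXB5* lies at its upper edge against control siRNA (0.95 and 1.13), and *HOXB13* does so where siRNA #8 is compared with either other array (1.02 and 1.19).

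When both siRNA arrays were joined as 1 silenced group in limma, the difference from control siRNA was 1.04 on the log2 scale for *HOXB5*, with a standard error of 0.32, and -0.66 for *HOXB8*, with a standard error of 0.32. For *HOXB13* it was 0.43 with a standard error of 0.51, the largest standard error of the 8 genes. The control group holds 1 array, so the only spread within a group was the difference between the siRNA arrays. limma pools this spread over all passing probes, so a standard error is not the spread of that gene alone. *HOXB8* differed by -0.027 between the siRNA arrays, yet its standard error was 0.32. The test had little power for changes near 2-fold. The adjusted p was 0.9998 for each of the 8 genes, so 0 of them passed 0.05 by this test, and *HOXB5* alone had an unadjusted value under 0.05. Over all passing probes, 1 of 18121 passed after adjustment (0.00552%) and 659 had an unadjusted value under 0.05 (3.64%).

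**Figure D4:**
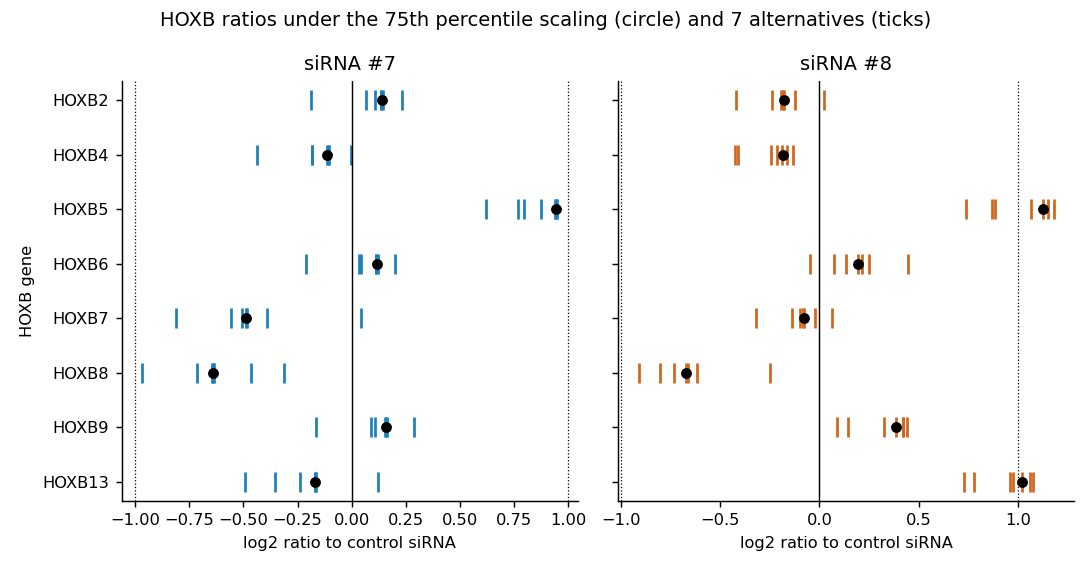
Log2 ratio to control siRNA of the 8 *HOXB* genes with a passing probe under the scaling used in the text (circles) and 7 alternatives of scaling, background or source of values (ticks; some coincide), for siRNA #7 and siRNA #8; dotted lines mark 2-fold. *HOXB5* stays above 0 (0.62 or more) and *HOXB8* below 0 (-0.25 or less) in both panels, whereas *HOXB2*, *HOXB6* and *HOXB7* cross 0 in both and *HOXB9* and *HOXB13* with siRNA #7 only.

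The other *HOX* clusters gave different medians, which were not tested against the *HOXB* genes. Over 8 *HOXA* genes the median log2 ratio was -0.14 for siRNA #7 and -0.52 for siRNA #8, and over 5 *HOXC* genes it was 0.53 and 0.057. Outside the *HOXB* cluster, 2-fold was passed by *HOXA3* (-1.31 ± 0.41) and *HOXA11* (-1.09 ± 0.41) with siRNA #8 and by *HOXC4* (1.05 ± 0.40) with siRNA #7. Over all genes, 3.77% passed 2-fold with siRNA #7 and 4.98% with siRNA #8. The control spots of *HOXA3*, *HOXA11* and *HOXC4* were dim (36.8, 37.6 and 20.4). Ratios in this paragraph with an SD of about 0.40 come from dim spots, as for *HOXB2* and *HOXB7*. *HOXA6* had the highest mean of both ratios in its cluster (0.45 ± 0.40 and 0.74 ± 0.41), *HOXC13* had the lowest in its own (0.36 ± 0.25 and -0.75 ± 0.34), and *HOXD8* was the single *HOXD* gene that passed the filter (-0.23 ± 0.40 and -0.16 ± 0.41). Among the 10 cofactors with which HOXB proteins bind DNA, 9 had a matched probe and 8 a passing one. *PBX3* passed 2-fold with siRNA #8 (-1.03 ± 0.41, after -0.046 ± 0.40 with siRNA #7). *MEIS3* had the highest mean of both ratios among the cofactors (0.37 ± 0.40 and 0.74 ± 0.41). Of 16 regulators known to act on *HOX* genes, such as the caudal factors, retinoid receptors and NF-Y, 12 had a passing probe and 0 passed 2-fold with either siRNA, where 3.77% and 4.98% of all genes did. The highest of them by the mean of both ratios was *RXRB*, a partner of the retinoic acid receptors (0.64 ± 0.23 and 0.46 ± 0.24), and the lowest was *NFYB*, a subunit of NF-Y (-0.59 ± 0.19 and -0.49 ± 0.21). Of the 21 neighbours in and beside the *HOXB* cluster, 16 had a matched probe and 10 a passing one. *CALCOCO2*, an autophagy receptor gene beyond *HOXB13*, passed 2-fold with siRNA #8 (1.04 ± 0.35, after 0.58 ± 0.40 with siRNA #7), and *CBX1*, a heterochromatin protein gene beyond *HOXB1*, had the lowest mean (0.048 ± 0.14 and -0.66 ± 0.15). The *CALCOCO2* spot was dim (20.9 on the control array, against 34.8 for siRNA #8).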

How the data were processed

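Gene expression was measured on 3 one-color Agilent arrays, 1 per condition. Per the file headers, the authors obtained the deposited intensity of each spot with Agilent Feature Extraction 11.5.1.1, which subtracted and detrended the background without scaling between arrays. A second deposited table holds log2 values that the authors made with GeneSpring 14.9. Set against the intensities, its differences between arrays had a slope of 1.00, and each column had a median of 0, since each probe was centred on its median over the arrays. The methods name a cut at the 20th percentile and a use of flags, but no normalization.

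Outlier spots (313 to 413 per array) were dropped, repeated spots of 1 probe were averaged on the log2 scale, and the 75th percentile of each array over all gene probes was subtracted. A probe passed if it was well above background on all 3 arrays and at or above the 20th percentile on at least 2. This left 18121 of 50599 probes. Names came from RefSeq (GRCh38.p14) through unversioned accessions and were found for 30004 probes. Since the array design is annotated on an older build, no coordinates are given for the genes measured; those of the microRNAs are RefSeq's. Where several probes of 1 gene passed, the brightest was used, and the genes named are the *HOXB* genes, *HOXA5*, the genes between *HOXB1* and *HOXB13*, and, of each list other than the markers, those past 2-fold with either siRNA and the highest and lowest by the mean of both ratios. The spot-to-spot SD was pooled within 6 ranges of signal. Computations used Python 3.11.15, numpy 2.4.6, pandas 2.3.3, R 4.3.3 and limma 3.58.1 with Benjamini-Hochberg adjustment over all passing probes. The limma fit and a rule of 2-fold higher with both siRNAs were also run on simulated levels. With 1 array per condition, their number limits the precision. The *HOXB* cluster was picked as a subject, and the gene lists and alternatives were set, with earlier results of these data known, although membership itself follows position alone. The siRNA numbers in the sample labels were used, although the array names carry other numbers.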

Additional observations from a re-analysis of the deposited data

How the results depend on the processing

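No paired analysis was possible because control siRNA and each siRNA were run on a single array. The files hold no mean spot signal, so normexp (offset 50) was run on median spot signals. The ratios of *HOXB5* and *HOXB13* with siRNA #8 lie near 2-fold, so the count of *HOXB* genes past 2-fold with siRNA #8, 2 of 8, depended on the setting. It was 1 with the median of each array, where *HOXB13* had 0.96, and 0 with scaling on spike-in controls (0.89 for *HOXB5* and 0.78 for *HOXB13*), under normexp (0.87 and 0.73) and after removal of neighbouring spots (0.74 and 0.97). With a threshold of 1.5-fold, 2 genes passed with siRNA #7 in place of 0 and 3 with siRNA #8 in place of 2. Scaling on spike-in controls moved the median log2 ratio to -0.32 with siRNA #7 and to -0.18 with siRNA #8. This scaling subtracts a single value per array, so it moved the ratios of all genes with a given siRNA by the same amount. Why the settings differ was not tested. When a probe needed to pass the background test on only 1 array, *HOXB3* entered the count with siRNA #8, which became 3 of 9, but its siRNA #8 spot was not above background and the bound is 1.30-fold. The 2 looser filters did not move the ratio of any of the 8 genes, since the brightest probe stood for each gene. They admitted the second, dimmer *HOXB2* probe, whose log2 ratio with siRNA #8 was -1.26 from a spot not well above background. The mean over passing probes could not move a ratio, since each of the 8 genes has 1 passing probe. Of the 168 ratios of single genes under the 7 remaining alternatives, 141 moved by less than their spot-to-spot SD and 27 by more. The 141 include the ratios from the deposited values, which were nearly those of the main scaling. Dim spots limit *HOXB2*, *HOXB3* and *HOXB7* most, with an SD of the ratio of about 0.40.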
